A study of Mus musculus with 9 samples.

Results

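Neat1 and Malat1 are 2 long noncoding RNAs of the nucleus, and Sfpq, Nono and Pspc1 are 3 proteins of the nuclear bodies called paraspeckles. The RNA signals of their genes were followed in rapamycin-resistant and rapamycin-sensitive BC3H1 cells. The 5 genes were chosen by their measured signals on all 9 arrays of the series, so their values are given as a description, with no test. They hold every probe set that the array's annotation gives to 1 of these symbols alone, 21 of the 45101 probe sets and 5 of the 18193 genes with such a probe set: 2 for Neat1, 7 for Malat1, 6 for Sfpq, 4 for Nono and 2 for Pspc1. All 21 had a mean signal above 22.2, the 40th percentile of all probe sets, below which nothing was tested.

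Neat1 is the RNA scaffold on which paraspeckles form, and its gene lies next to that of Malat1, an RNA that collects in nuclear speckles, where splicing factors are stored. Sfpq, Nono and Pspc1 belong to the DBHS family of RNA-binding proteins. They pair with one another, Sfpq and Nono bind Neat1 and are needed to build a paraspeckle, and all 3 are part of it. Much of what is known of these bodies comes from human cell lines as well as from the mouse. Rapamycin inhibits the growth-controlling kinase complex mTORC1.

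BC3H1 is a mouse line from a brain tumour with properties of smooth muscle. RR_Rap arrays held resistant cells, the single line RR1, raised from BC3H1 over 6 months in 1 uM rapamycin and kept in that dose. RS_Rap arrays held the parental sensitive cells after 24 h in 100 nM rapamycin, and RS_DMSO arrays the same sensitive cells after 24 h in DMSO, the solvent. Each group had 3 arrays, a design with no resistant cells off the drug, so line, dose and length of exposure cannot be told apart when RR_Rap is set against either other group. Nothing states that replicate arrays came from separate cultures, so the spread between them may be technical. In whole cultures, fewer cells carrying a transcript and less of it per cell cannot be told apart either.

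Signals on each array are on 1 linear scale, set by the scanner software to the same trimmed mean. The third RS_DMSO array stood apart, with a median signal of 66.2 and 17.4% of probe sets below 16. The other 8 had medians of 33.5 to 44.3 and 29.3% to 34.8% of probe sets below 16. Some printed differences from RS_DMSO of probe sets of the 5 genes moved by over 1.5 times or changed sign without this array. Those are given without it too. Its part in the results was otherwise not tested. The 3′ minus 5′ log2 signal of the Actb control, which falls as RNA or its copying is more complete, averaged 0.33 ± 0.02 in RR_Rap, 0.19 ± 0.04 in RS_Rap and 0.17 ± 0.008 in RS_DMSO (SD, n = 3 each; exact permutation p = 0.1 for RR_Rap against either, the smallest that 3 against 3 allow, and 0.4 for RS_Rap against RS_DMSO, two-sided). That of Gapdh averaged -0.29 ± 0.04, -0.36 ± 0.04 and -0.31 ± 0.02 in the same 3 groups. By the same permutation test its p was 0.1 for RS_Rap against either other group and 0.4 for RR_Rap against RS_DMSO. Of 5 smooth muscle markers, Acta2 and Tagln were above the filter in RR_Rap, with a sum over the 5 of 7174 to 8834. In RS_Rap and RS_DMSO, Cnn1 and Actg2 were above it too, with sums of 26981 to 27488 and 22023 to 30035, and Myh11 was below it in every group. Sums over 6 skeletal muscle markers, were 1358 to 1431 in RR_Rap, 2057 to 2379 in RS_Rap and 1863 to 2372 in RS_DMSO. Myf5 and Des were above the filter in all 3 groups, Myog only in RR_Rap, Myod1 and Chrna1 only in RS_Rap and RS_DMSO, and Ckm in RR_Rap and RS_DMSO. Sums over 4 neuron, 3 astrocyte, 3 endothelial, 3 leukocyte and 3 epithelial markers and 2 of oligodendrocytes were at most 326 per list on any array. Of these, Rbfox3, Syp, Gfap, Aqp4, Slc1a3, Kdr, Cd68 and Epcam were above the filter in all 3 groups. Map2, Mbp and Aif1 were above it only in RS_Rap and RS_DMSO, Krt18 only in RS_Rap, and Cdh5 and Ptprc only in RS_DMSO. The part of these markers and of the 3′ to 5′ difference in the results was not tested.

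The sequences just upstream of 4 of the 5 genes are shown because their transcripts moved in different directions between the groups. They are the 250 bases before each annotated start, from RefSeq on GRCm38.p6, for Malat1 at chr19:5802673-5802922 on the minus strand, Sfpq at chr4:127021051-127021300 on the plus strand, Nono at chrX:101429401-101429650 on the plus strand and Pspc1 at chr14:56778319-56778568 on the minus strand, each 5′ to 3′ on the strand of its gene. Neat1 was the fifth gene, named only. Capitals mark matches to any of 8 short motifs on either strand.
Malat1: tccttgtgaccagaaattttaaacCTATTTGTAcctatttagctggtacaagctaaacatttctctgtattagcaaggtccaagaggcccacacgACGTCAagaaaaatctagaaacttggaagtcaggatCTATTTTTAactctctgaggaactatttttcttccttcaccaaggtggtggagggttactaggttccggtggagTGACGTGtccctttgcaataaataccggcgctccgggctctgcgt
Sfpq: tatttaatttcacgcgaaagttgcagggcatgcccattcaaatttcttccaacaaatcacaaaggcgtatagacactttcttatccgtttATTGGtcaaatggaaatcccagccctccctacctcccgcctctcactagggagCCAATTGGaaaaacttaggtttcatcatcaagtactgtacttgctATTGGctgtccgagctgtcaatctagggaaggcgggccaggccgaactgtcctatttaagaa
Nono: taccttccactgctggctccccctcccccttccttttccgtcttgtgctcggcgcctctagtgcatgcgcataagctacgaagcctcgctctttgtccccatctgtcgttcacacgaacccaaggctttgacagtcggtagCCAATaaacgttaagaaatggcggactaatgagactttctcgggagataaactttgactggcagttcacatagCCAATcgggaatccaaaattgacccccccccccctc
Pspc1: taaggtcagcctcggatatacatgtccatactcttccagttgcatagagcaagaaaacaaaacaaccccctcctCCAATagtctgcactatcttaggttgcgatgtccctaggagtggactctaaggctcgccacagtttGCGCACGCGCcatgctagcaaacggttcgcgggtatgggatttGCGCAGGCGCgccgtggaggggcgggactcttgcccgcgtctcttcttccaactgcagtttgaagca

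The motifs were picked after these promoters were read, and their matches describe letters, not bound sites. Malat1 held the core of the cAMP response element, TGACGT, at 155 and at 45 bases before the start, a motif that 6.47% of 32851 promoters of the same length hold. The second of these overlaps the only match to the hypoxia response core ACGTG, 43 bases before the start (16.6% of promoters). The MEF2 motif CTATTTNTA, in which N is any base, matched Malat1 at 226 and 119 bases and is held by 1.20% of promoters. Sfpq had 4 matches to the CCAAT box, CCAAT, at 160, 107, 104 and 62 bases, with the middle pair overlapping on opposite strands, Nono had 2 at 109 and 36 bases and Pspc1 had 1 at 176 bases (33.8% of promoters). Pspc1 also had the NRF1 motif, GCGCA and GCGC with any base between them, at 110 and 67 bases (3.74% of promoters). No letters of the E-box CACGTG (6.02%), the FOXO motif TGTTTAC (3.17%) or the TATA box TATAAA (12.4%) were in these 4 windows.

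Rapamycin for 24 h gave sensitive cells far more Neat1 signal on its brighter probe set, while resistant cells, also in rapamycin, were much nearer to the DMSO level. Neat1 1428083_at read 402, 335 and 402 on the RR_Rap arrays, 2807, 2643 and 1944 on the RS_Rap arrays and 311, 282 and 118 on the RS_DMSO arrays. No RS_Rap array came near any array of the other groups, and the RR_Rap arrays lay just above the highest RS_DMSO one. Means were 379.9 ± 38.5 in RR_Rap, 2465 ± 458 in RS_Rap and 237 ± 104 in RS_DMSO (SD, n = 3 each). The ratio of the means was 10.4 for RS_Rap over RS_DMSO, and the log2 difference of 3.38 ± 0.24, on the log2(signal + 16) scale used throughout with its standard error, was the highest of the 27022 probe sets above the filter. RR_Rap was 0.75 ± 0.24 above RS_DMSO, or 0.34 without the third RS_DMSO array, and -2.63 ± 0.24 from RS_Rap, a mean 6.49 times lower.

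The other Neat1 probe set did not follow. Neat1 1442881_at read 47.0, 27.5 and 68.5 in RR_Rap, 70.5, 94.7 and 61.0 in RS_Rap and 29.8, 61.0 and 209 in RS_DMSO, dim signals whose groups all overlapped. Its differences were -0.04 ± 0.44 for RS_Rap minus RS_DMSO, -0.59 ± 0.44 for RR_Rap minus RS_DMSO and -0.56 ± 0.44 for RR_Rap minus RS_Rap. The highest of the 9 values was the third RS_DMSO array, and without it the first came to 0.60 and the second to 0.05. Over the 9 arrays the pair of Neat1 probe sets had a Pearson correlation of -0.06. Which stretch of Neat1 each probe set reads was not determined, and its short and long transcripts were not separated here.

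**Figure D1:**
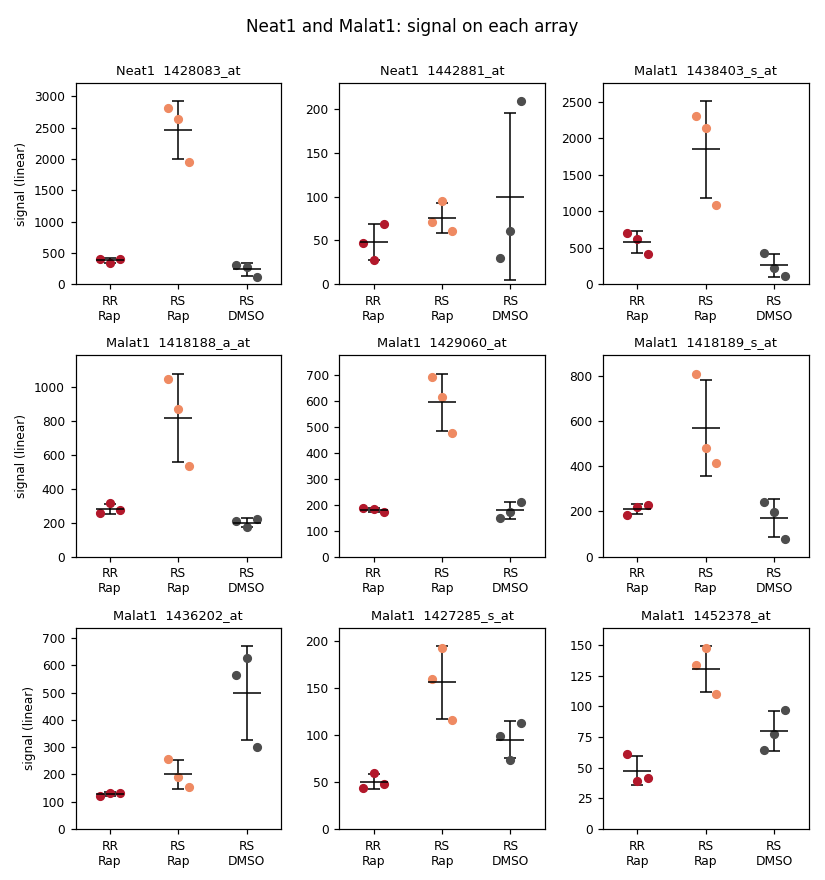
Linear signal of each Neat1 and Malat1 probe set on every array, with points for the 3 arrays of RR_Rap, RS_Rap and RS_DMSO, a long bar for the mean and error bars for the SD; each panel has its own axis from 0. Neat1 1428083_at reads 1944 to 2807 in RS_Rap and at most 402 elsewhere, 6 of 7 Malat1 probe sets are highest in RS_Rap, and Malat1 1436202_at is highest in RS_DMSO.

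Malat1 had the next largest difference. Malat1 1438403_s_at, its brightest probe set, read 706, 616 and 407 in RR_Rap, 2305, 2146 and 1088 in RS_Rap and 433, 226 and 110.1 in RS_DMSO. Every RS_Rap array was above every other array, while RR_Rap and RS_DMSO overlapped. RS_Rap minus RS_DMSO was 2.89 ± 0.34, rank 2 of 27022, and 2.42 without the third RS_DMSO array. RR_Rap minus RS_DMSO was 1.27 ± 0.34, but 0.81 without that array and -0.13 as the mean of the 7 Malat1 probe sets. RR_Rap minus RS_Rap was -1.61 ± 0.34. The suffix _s_at marks probes that may also match other transcripts.

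A group of 3 further Malat1 probe sets had the same shape at lower signal. Malat1 1418188_a_at read 259, 314 and 273 in RR_Rap, 1049, 873 and 535 in RS_Rap and 209, 173 and 221 in RS_DMSO. Malat1 1429060_at read 186, 184 and 172 in RR_Rap, 695, 618 and 478 in RS_Rap and 149, 173 and 213 in RS_DMSO. Malat1 1418189_s_at, made from the same sequence record as 1418188_a_at, read 186, 221 and 227 in RR_Rap, 810.1, 482 and 412 in RS_Rap and 240.2, 196 and 76.2 in RS_DMSO. In all 3 the RS_Rap arrays lay above both other groups. RS_Rap minus RS_DMSO was 1.90 ± 0.18, 1.65 ± 0.15 and 1.71 ± 0.29 in that order, and RR_Rap minus RS_Rap was -1.44 ± 0.18, -1.62 ± 0.15 and -1.31 ± 0.29. RR_Rap stood close to RS_DMSO, at 0.46 ± 0.18 with no overlap, 0.03 ± 0.15 and 0.41 ± 0.29 with overlap; the last was -0.04 without the third RS_DMSO array and 0.70 without the first, and the one before it 0.15 without the third and -0.08 without the first.

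The remaining Malat1 probe sets split. Malat1 1427285_s_at, dim and made from 1 record together with 1452378_at, read 44.2, 59.4 and 48.3 in RR_Rap, 159.7, 193 and 116 in RS_Rap and 98.7, 73.8 and 113 in RS_DMSO. Malat1 1452378_at read 61.2, 39.3 and 41.9 in RR_Rap, 134, 147 and 110.4 in RS_Rap and 64.7, 77.5 and 96.8 in RS_DMSO. Both were again highest in RS_Rap, with RS_Rap minus RS_DMSO at 0.62 ± 0.24 and 0.62 ± 0.25, but here RR_Rap lay below RS_DMSO with no overlap, at -0.73 ± 0.24 and -0.59 ± 0.25. RR_Rap minus RS_Rap was -1.35 ± 0.24 and -1.21 ± 0.25.

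One Malat1 probe set ran the other way against DMSO. Malat1 1436202_at read 119.97, 131 and 132 in RR_Rap, 258, 192 and 153 in RS_Rap and 564, 627 and 301 in RS_DMSO, so that the 3 groups stood apart from each other with RS_DMSO on top. RS_Rap minus RS_DMSO was -1.21 ± 0.22, RR_Rap minus RS_DMSO -1.77 ± 0.22 and RR_Rap minus RS_Rap -0.57 ± 0.22. Over the 9 arrays, which share the 3 groups, the brightest Malat1 probe set correlated at 0.93 with 1418189_s_at, 0.89 with 1418188_a_at, 0.79 with 1429060_at, 0.47 and 0.46 with the dim pair and -0.39 with 1436202_at. In RR_Rap against RS_Rap alone, all 7 Malat1 probe sets pointed one way, each with every RR_Rap array below every RS_Rap array.

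Sfpq, which binds DNA and RNA and is known in splicing and transcription as well as in paraspeckles, was lowest in RS_Rap and highest in RR_Rap on 4 of its 6 probe sets. Sfpq 1423795_at, the brightest over the 9 arrays, read 1441, 1331 and 1346 in RR_Rap, 839, 674 and 697 in RS_Rap and 1142, 1238 and 1112 in RS_DMSO, and no group overlapped another. Means were 1373 ± 59.9 in RR_Rap, 737 ± 89.6 in RS_Rap and 1164 ± 65.9 in RS_DMSO (SD, n = 3 each). RS_Rap minus RS_DMSO was -0.65 ± 0.09, RR_Rap minus RS_DMSO 0.24 ± 0.09 and RR_Rap minus RS_Rap 0.89 ± 0.09. Its partner from the same record, Sfpq 1423796_at, read 476, 503 and 587 in RR_Rap, 261, 228 and 233 in RS_Rap and 323, 368 and 367 in RS_DMSO. It kept the order of the groups, at -0.52 ± 0.11, 0.54 ± 0.11 and 1.06 ± 0.11 in the same 3 comparisons.

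Sfpq 1438458_a_at and 1438459_x_at gave the same order. Sfpq 1438458_a_at read 954, 888 and 921 in RR_Rap, 574, 594 and 476 in RS_Rap and 683, 620.1 and 665 in RS_DMSO. Sfpq 1438459_x_at, whose suffix marks some probes that match other sequences, read 825, 789 and 730.3 in RR_Rap, 369, 422 and 371 in RS_Rap and 503, 445 and 450.3 in RS_DMSO. Neither had overlapping groups: RS_Rap minus RS_DMSO was -0.26 ± 0.09 and -0.26 ± 0.10, RR_Rap minus RS_DMSO 0.48 ± 0.09 and 0.73 ± 0.10, and RR_Rap minus RS_Rap 0.74 ± 0.09 and 0.99 ± 0.10.

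A bright Sfpq probe set put the sensitive groups in the opposite order. Sfpq 1436898_at read 1329, 1395 and 1511 in RR_Rap, 773, 576 and 557 in RS_Rap and 425, 411 and 347 in RS_DMSO. All 3 groups stood apart, with RS_DMSO lowest: RS_Rap minus RS_DMSO was 0.66 ± 0.12, RR_Rap minus RS_DMSO 1.80 ± 0.12, the largest of any Sfpq probe set, and RR_Rap minus RS_Rap 1.15 ± 0.12. Sfpq 1439058_at was dim, between 44.5 and 113 on the 9 arrays, and its groups overlapped in every comparison. Over the 9 arrays 1423795_at correlated at 0.93 with 1423796_at and at 0.42 with 1436898_at. Whether 1436898_at reads another transcript of Sfpq was not determined.

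Nono, the usual partner of Sfpq, differed little between the groups on its brighter pair of probe sets. A dim one differed by over 2-fold in mean signal between RS_Rap and either other group. Nono 1448103_s_at read 5545, 5873 and 5699 in RR_Rap, 6714, 7282 and 6515 in RS_Rap and 6551, 6658 and 5706 in RS_DMSO. Only RR_Rap and RS_Rap did not overlap, at -0.26 ± 0.08; RS_Rap minus RS_DMSO was 0.12 ± 0.08, or 0.05 without the third RS_DMSO array, and RR_Rap minus RS_DMSO -0.14 ± 0.08. The difference between RR_Rap and RS_Rap was -0.13 after centring each array on its 75th percentile, -0.40 after quantile normalization and 0.15 as the mean of the 4 Nono probe sets. Nono 1415820_x_at, of the same record, lay between 2677 and 3348 on every array, with overlap in every comparison and differences of -0.10 ± 0.08, -0.16 ± 0.08 and -0.05 ± 0.08, the first of them -0.17 without the third RS_DMSO array.

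The dimmer Nono probe sets disagreed. Nono 1447160_at read 229, 221 and 184 in RR_Rap, 44.1, 119 and 103 in RS_Rap and 196, 226 and 128 in RS_DMSO. RS_Rap was lowest with no overlap, -0.98 ± 0.26 from RS_DMSO, or -0.62 without its lowest array, the first. RR_Rap was 1.20 ± 0.26 from RS_Rap. RR_Rap and RS_DMSO overlapped, at 0.22 ± 0.26, or -0.0004 without the third RS_DMSO array. Nono 1431239_at read 115, 111 and 116 in RR_Rap, 172, 131 and 130.5 in RS_Rap and 114, 126 and 150.04 in RS_DMSO. There RR_Rap lay below RS_Rap, at -0.30 ± 0.18, and the other comparisons overlapped. RS_Rap minus RS_DMSO was 0.14 ± 0.18, or 0.23 without the third RS_DMSO array. RR_Rap minus RS_DMSO was -0.16 ± 0.18, or -0.06 without that array.

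Pspc1 1423192_at, like 5 of the 6 Sfpq probe sets, was higher in resistant cells than in both other groups with no overlap. Pspc1 1423192_at read 636, 663 and 589 in RR_Rap, 194, 156 and 175 in RS_Rap and 208, 193 and 229.8 in RS_DMSO. Every RR_Rap array was well above the other 6, while RS_Rap and RS_DMSO overlapped at the edge. Means were 629 ± 37.5 in RR_Rap, 175 ± 19.2 in RS_Rap and 210.1 ± 18.6 in RS_DMSO (SD, n = 3 each). RR_Rap minus RS_DMSO was 1.51 ± 0.12, a ratio of means of 2.99, RR_Rap minus RS_Rap 1.76 ± 0.12, a ratio of 3.60, and RS_Rap minus RS_DMSO -0.25 ± 0.12. Pspc1 1423193_at, from the same record, was dim, at most 96.1 on any array, overlapped in all 3 comparisons and correlated with the first at 0.24.

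**Figure D2:**
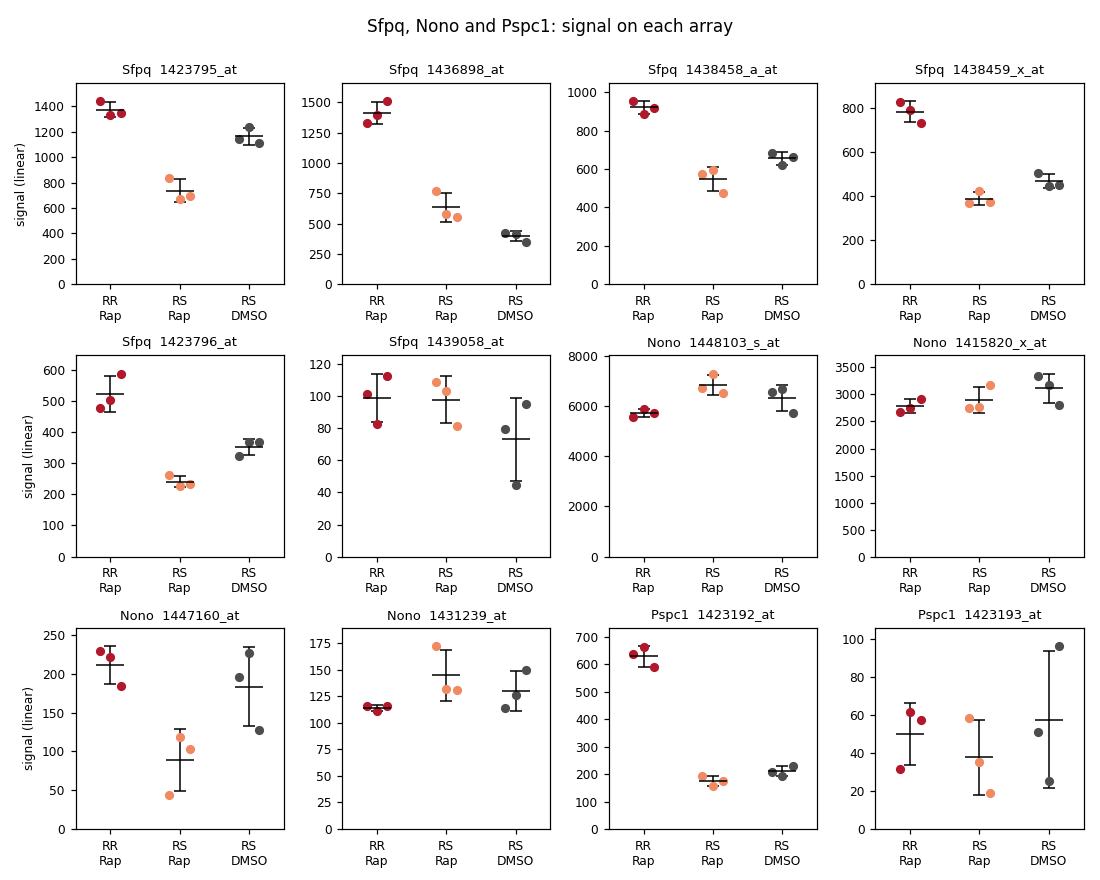
Linear signal of each Sfpq, Nono and Pspc1 probe set on every array, with points for the 3 arrays of RR_Rap, RS_Rap and RS_DMSO, a long bar for the mean and error bars for the SD; each panel has its own axis from 0. Pspc1 1423192_at reads 589 to 663 in RR_Rap and 156 to 229.8 elsewhere, 4 Sfpq probe sets are lowest in RS_Rap, and the groups of the brightest Nono probe set lie close together.

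Counted over the 21 probe sets, 8 were higher and 6 lower in RS_Rap than in RS_DMSO with no overlap of the groups. Of the 27022 probe sets above the filter, 22.3% and 15.7% were. Of the 8, 6 were Malat1, 1 Neat1 and 1 Sfpq, and of the 6, 4 were Sfpq, 1 Malat1 and 1 Nono. RR_Rap was higher than RS_DMSO on 8 and lower on 3, or 9 and 5 without the third RS_DMSO array, with a background of 25.9% and 26.5%. RR_Rap was higher than RS_Rap on 7, namely 5 of Sfpq, 1 of Nono and 1 of Pspc1, and lower on 10, namely 7 of Malat1, 1 of Neat1 and 2 of Nono, with a background of 26.6% and 32.4%. On the log2(signal + 16) scale, differences of at least 2-fold numbered 5 higher and 1 lower for RS_Rap against RS_DMSO (2.91% and 3.8% of all). They numbered 3 and 1 for RR_Rap against RS_DMSO (5.79% and 9.6%), and 4 and 7 for RR_Rap against RS_Rap (9% and 12.7%). Since these signals chose the genes, nothing is read from the counts, and the comparisons share arrays.

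**Figure D3:**
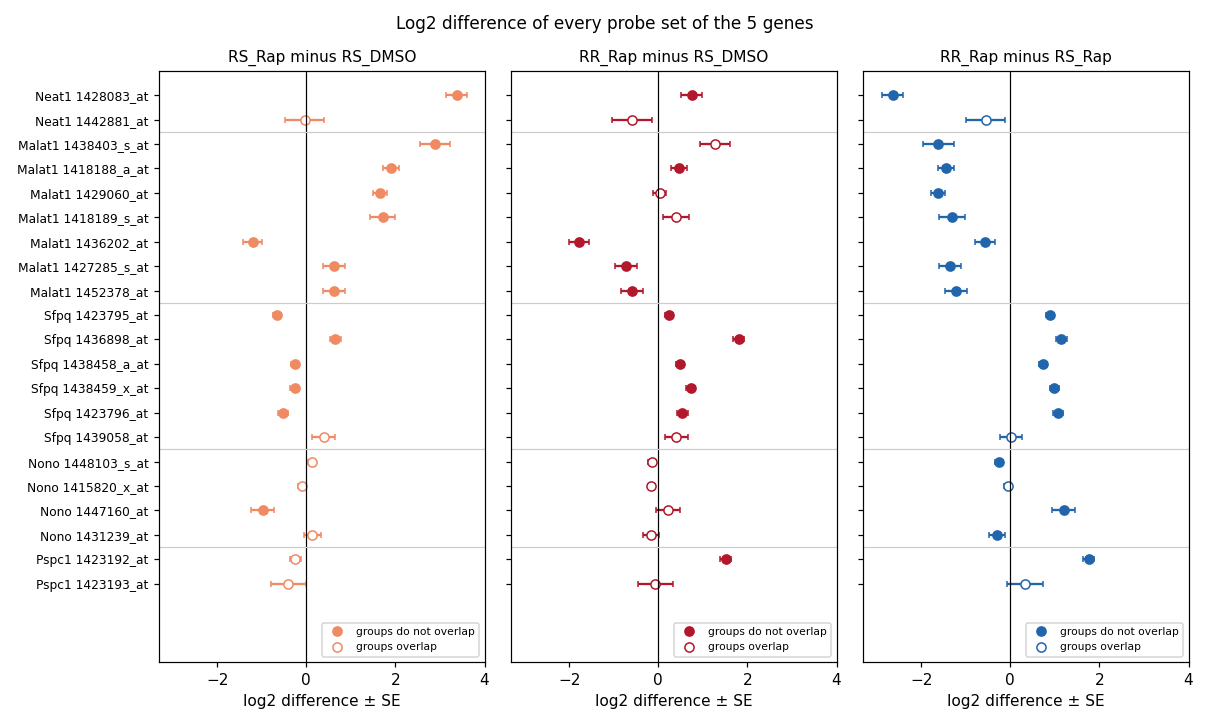
Log2 difference (± SE of the limma fit, n = 3 arrays a group) of each of the 21 probe sets in 3 panels, RS_Rap minus RS_DMSO, RR_Rap minus RS_DMSO and RR_Rap minus RS_Rap; filled points mark groups that do not overlap, open points groups that do. Neat1 1428083_at stands at 3.38 in the left panel and -2.63 in the right, all 7 Malat1 probe sets are left of 0 in the right panel, and 5 of 6 Sfpq probe sets and Pspc1 1423192_at lie between 0.74 and 1.76 there.

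The rest of the paraspeckle was tested through genes that were not used to choose the 5, by limma with Benjamini-Hochberg adjustment over 12715 genes, each read by its brightest probe set. This list and those below were, however, chosen with earlier results of these data known. A gene was called, and is said to have risen or fallen, at an adjusted p under 0.05. Of 39 listed paraspeckle components, most of them assigned in human cells, 34 were tested. In RS_Rap 4 rose and 8 fell against RS_DMSO (median -0.03), where 20.4% of all genes rose and 15.2% fell, 35.6% in all, around a median of 0.03. In RR_Rap 22 rose and 6 fell against RS_DMSO (median 0.44), where 25.9% of all genes rose and 25.8% fell, 51.8% in all, around -0.07. Against RS_Rap, 25 rose and 6 fell in RR_Rap (median 0.54), where 26.4% of all genes rose and 30.1% fell, 56.5% in all, around -0.08. After quantile normalization 2 rose and 9 fell in the first comparison, with the mean of each gene's probe sets 2 and 7, and without the first RS_Rap array 2 and 6.

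Among the components whose difference was called in RS_Rap against RS_DMSO, Fam98a fell, with mean signals of 961 ± 51.9 in RS_Rap and 1691 ± 84.3 in RS_DMSO and a log2 difference of -0.81 ± 0.07 (adjusted p = 1.34e-07). Rbmx, a splicing regulator of the hnRNP family, was called higher on its brightest probe set, at 0.89 ± 0.22 (adjusted p = 0.00451). Another of its 4 probe sets, 1416354_at, was at -1.35, and the mean of the 4 was -0.36 (adjusted p = 0.354). Ss18l1, a subunit of a neuronal chromatin remodelling complex, was at 0.85 ± 0.29 (adjusted p = 0.0275) and the transcription factor Dlx3 at -1.02 ± 0.35 (adjusted p = 0.0311). Dlx3 averaged 17.1 ± 8.48 in RS_Rap, below the filter signal of 22.2, and 50.9 ± 16.1 in RS_DMSO. The Ss18l1 call was lost without the third RS_DMSO array or the first or the third RS_Rap array (adjusted p = 0.0753, 0.118 and 0.0672). The Dlx3 call was lost without the second RS_DMSO array, the first RS_Rap array or the first or the second RR_Rap array (adjusted p = 0.104, 0.12, 0.0517 and 0.0527). It was lost too with a pseudocount of 64, with no filter and once its probe sets were averaged, at -0.49 (adjusted p = 0.0519, 0.0571 and 0.286). With no filter and after quantile normalization Ss18l1 was not called either (adjusted p = 0.0584 and 0.062).

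In resistant cells Cpsf7, a subunit of the cleavage factor CFIm that chooses polyadenylation sites and, in human cells, shapes the NEAT1 transcripts, rose: signals averaged 1015 ± 50.3 in RR_Rap and 511 ± 48.3 in RS_DMSO, a difference of 0.97 ± 0.09 (adjusted p = 8.7e-08). Against RS_Rap it was 1.05 ± 0.09 (adjusted p = 1.77e-08). The other Cpsf7 probe set, 1453356_at, was at 0.17 against RS_DMSO and -0.11 against RS_Rap, not called (adjusted p = 0.696 and 0.802 over the probe sets). Tardbp, an RNA-binding protein known to bind Neat1, averaged 3192 ± 76.0 in RR_Rap and 1245 ± 117 in RS_Rap, a difference of 1.35 ± 0.10 (adjusted p = 2.93e-09). In RS_Rap against RS_DMSO its 5 probe sets split in sign, as those of Sfpq did, with -0.81, -0.76 and -0.53 on 3 of them and 1.31 and 0.80 on 1428467_at and 1436318_at. All 5 were called when adjusted over the 27022 probe sets, at a p of at most 0.00098.

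Other components named by their size of change in RR_Rap against RS_DMSO were Ss18l1, which rose by 1.57 ± 0.29, and the zinc finger gene Zc3h6, which rose by 0.88 ± 0.22 (adjusted p = 0.000174 and 0.00305). Fign, an ATPase that severs microtubules, fell by 1.09 (adjusted p = 0.0283). The call was lost without the first or the third RS_DMSO array or the first or the third RR_Rap array (adjusted p = 0.0573, 0.0732, 0.0669 and 0.093). It was lost too after quantile normalization, at -0.83 (adjusted p = 0.0693). Fign signals averaged 17.4 ± 5.72 in RR_Rap, below the filter signal of 22.2, and 56.3 ± 20.2 in RS_DMSO. Against RS_Rap, Dlx3 rose by 1.69 ± 0.35 and the splicing regulator Rbm4b was at -1.21 ± 0.25 (adjusted p = 0.000451 and 0.000425). Both were dim: Dlx3 averaged 90.4 ± 27.7 in RR_Rap and 17.1 ± 8.48 in RS_Rap, Rbm4b 39.4 ± 11.4 and 111 ± 14.0. The other Dlx3 probe set, 1422037_at, was at 0.59 (adjusted p = 0.334 over the probe sets). For Rbm4b, 1430032_at was at -1.32 and 1431113_at at -0.05 (adjusted p = 0.00128 and 0.926 over the probe sets).

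Most genes for proteins of nuclear speckles, the bodies where Malat1 collects, had higher RNA signals in resistant cells. Protein was not measured. Of 29 tested, 25 rose and 0 fell in RR_Rap against RS_DMSO (median 0.48), where 25.9% of all genes rose, and 24 rose and 0 fell against RS_Rap (median 0.61), where 26.4% did, in the limma fit; at an unadjusted p under 0.05, 0 fell in either comparison. In RS_Rap against RS_DMSO, 6 rose and 15 fell (median -0.22), where 20.4% of all genes rose and 15.2% fell, or 9 and 10 with the mean of each gene's probe sets.

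The largest falls in RS_Rap were in SR proteins, which help choose splice sites: Srsf2 averaged 2683 ± 92.8 in RS_Rap and 5243 ± 377 in RS_DMSO, a difference of -0.96 ± 0.07 (adjusted p = 1.89e-08), and Srsf1 was at -0.82 ± 0.09 (adjusted p = 2.31e-06). The largest rises were in Clk1 and Clk4, kinases that phosphorylate SR proteins. Clk1 averaged 2171 ± 182 in RS_Rap and 1053 ± 37.9 in RS_DMSO, a difference of 1.03 ± 0.08 (adjusted p = 2.53e-08), and Clk4 was at 0.80 ± 0.17 (adjusted p = 0.00101). In RR_Rap against RS_DMSO, the speckle scaffold Srrm2 rose by 1.27 ± 0.11, Clk1 by 1.03 ± 0.08, Pnn, a protein of speckles and cell junctions, by 0.93 ± 0.10, and Luc7l2, a partner of the U1 snRNP, by 0.89 ± 0.08 (adjusted p at most 4.37e-07). U2af1, which reads the 3′ splice site, had the largest difference from RS_Rap: it averaged 5343 ± 279 in RR_Rap and 1769.8 ± 65.1 in RS_Rap, a difference of 1.58 ± 0.07 (adjusted p = 5.14e-12). Pnn, Luc7l2 and Srsf2 followed at 1.37 ± 0.10, 1.25 ± 0.08 and 1.21 ± 0.07 (adjusted p at most 1.59e-09). Probe sets of Luc7l2 disagreed: in RR_Rap against RS_DMSO 1427087_at was at -0.63 and 1436766_at at 2.14 (adjusted p = 0.000156 and 6.96e-09 over the probe sets).

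The 3′ ends of Malat1 and of the long Neat1 transcript are made not by polyadenylation but by RNase P, which cuts before a small tRNA-like RNA, and RNase Z (Elac2) trims that RNA. The list for these steps held the RNase P subunits, Elac2 and the methyltransferases Mettl16, Mettl3 and Mettl14, of which METTL16 binds the triple-helical end of human MALAT1. Of 12 tested, 0 rose and 9 fell in RS_Rap against RS_DMSO (median -0.43), where 15.2% of all genes fell. In RR_Rap 8 rose and 0 fell against RS_DMSO (median 0.36), and 10 rose and 0 fell against RS_Rap (median 1.20), where 25.9% and 26.4% of all genes rose. At an unadjusted p under 0.05 the 3 counts of 0 in limma were again 0. How well the cDNA labelling picks up RNAs whose ends are not made by polyadenylation was not determined. Signals of Malat1 and Neat1 may therefore not follow their amounts.

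Rpp30, an RNase P subunit, averaged 925 ± 84.5 in RS_Rap and 2028 ± 55.6 in RS_DMSO, a difference of -1.12 ± 0.08 (adjusted p = 3.14e-09). Mettl16 averaged 233 ± 51.5 in RS_Rap and 467 ± 70.3 in RS_DMSO, a difference of -0.97 ± 0.14 (adjusted p = 3.69e-05). The subunits Pop5 and Pop4 were lower too, at -0.81 ± 0.08 and -0.81 ± 0.12 (adjusted p at most 5.69e-05). The other probe sets of Rpp30 and Pop5, 1447970_at and 1431373_at, were at -0.13 and -0.47, not called (adjusted p = 0.798 and 0.522 over the probe sets). In RR_Rap against RS_DMSO the RNase P subunits Pop1 and Rpp40 rose by 1.87 ± 0.27 and 1.00 ± 0.16 and Elac2 by 0.53 ± 0.13 (adjusted p at most 0.00294). Rpp14 rose as well, with means of 1538 ± 92.9 in RR_Rap and 536 ± 67.5 in RS_DMSO (adjusted p = 1.47e-09). Against RS_Rap, Pop1, Rpp14, Rpp40 and Rpp30 rose by 2.26 ± 0.27, 1.93 ± 0.10, 1.74 ± 0.16 and 1.45 ± 0.08 (adjusted p at most 1.33e-06). Most RNase P subunits also belong to RNase MRP, which cuts ribosomal RNA precursors, and the cleavage itself was not measured.

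**Figure D4:**
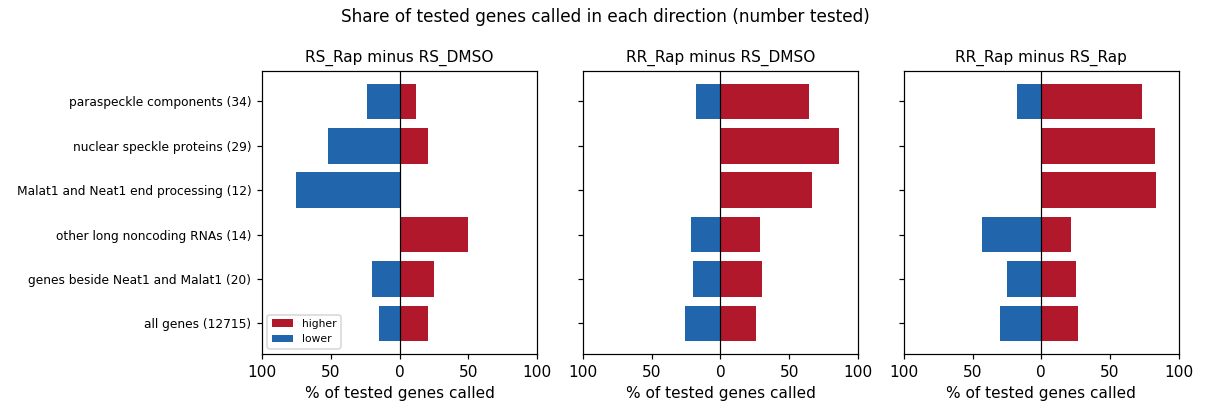
Percent of tested genes called higher (right of 0) and lower (left of 0) by limma at an adjusted p under 0.05 in each list, with the number tested in brackets, in RS_Rap minus RS_DMSO, RR_Rap minus RS_DMSO and RR_Rap minus RS_Rap. Nuclear speckle and end-processing genes have bars only to the right in both RR_Rap panels, against 25.9% and 26.4% higher among all 12715 genes.

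Other long noncoding RNAs were called about as often as all genes in both RR_Rap comparisons, and those called in RS_Rap against RS_DMSO all rose. Of 14 tested, 7 rose and 0 fell in RS_Rap against RS_DMSO (median 0.42), 4 rose and 3 fell in RR_Rap against RS_DMSO (median 0.19), and 3 rose and 6 fell in RR_Rap against RS_Rap (median -0.29). Over all genes 20.4% rose and 15.2% fell in the first of these comparisons, and 51.8% and 56.5% were called in either direction in the second and the third. Firre, an X-linked nuclear RNA, had the largest rise of the first 7, with means of 265 ± 58.7 in RS_Rap and 117 ± 15.8 in RS_DMSO and a difference of 1.06 ± 0.17 (adjusted p = 0.000112). At an unadjusted p under 0.05 in limma, 0 fell there. Dancr, Xist and Oip5os1 rose by 0.57 ± 0.13, 0.55 ± 0.14 and 0.43 ± 0.07 (adjusted p at most 0.00539). Xist, the RNA that silences 1 X chromosome in female cells, had the largest fall in the resistant line: it averaged 31.1 ± 6.33 in RR_Rap and 1067 ± 171 in RS_DMSO, a difference of -4.52 ± 0.14 (adjusted p = 6.53e-14). Against RS_Rap it was -5.07 ± 0.14 (adjusted p = 7.47e-15). Pvt1, the neighbour of Myc, averaged 846 ± 50.3 in RR_Rap and 119 ± 19.2 in RS_DMSO, a difference of 2.68 ± 0.14 (adjusted p = 4.3e-11). Against RS_Rap, Pvt1 rose by 2.28 ± 0.14 and Dancr by 1.45 ± 0.13, and Dancr rose by 2.03 ± 0.13 against RS_DMSO (adjusted p at most 2.19e-08). Dleu2 was -2.39 ± 0.40 (adjusted p = 4.52e-05) against RS_Rap and -1.56 ± 0.40 (adjusted p = 0.00301) against RS_DMSO, and the call against RS_DMSO was lost once its probe sets were averaged (adjusted p = 0.0997). It averaged 8.70 ± 5.61 in RR_Rap, below the filter signal of 22.2, 118 ± 50.3 in RS_Rap and 61.1 ± 36.9 in RS_DMSO. In the same order of comparisons, 1427411_s_at was at -1.50 and -0.86 (adjusted p = 0.00104 and 0.0464 over the probe sets). Dleu2 1456145_at was at 0.42 and 0.60, not called (adjusted p = 0.351 and 0.169 over the probe sets).

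Of 5 listed regulators of Neat1 transcription, 2 were tested. Brca1, a repair protein that represses NEAT1 in human cells, averaged 386 ± 11.1 in RR_Rap, 83.8 ± 5.69 in RS_Rap and 517 ± 38.4 in RS_DMSO (SD, n = 3 each). RS_Rap minus RS_DMSO was -2.42 ± 0.12 (adjusted p = 4.89e-11) and RR_Rap minus RS_Rap 2.01 ± 0.12 (adjusted p = 1.2e-10). RR_Rap minus RS_DMSO was -0.40 ± 0.12 (adjusted p = 0.00899), not called once its 4 probe sets were averaged (adjusted p = 0.0658). Atf2, a stress-responsive transcription factor reported to drive NEAT1 in human cells, was at 0.09 ± 0.07 (adjusted p = 0.39) in RS_Rap against RS_DMSO. It rose by 0.40 ± 0.07 in RR_Rap against RS_DMSO and by 0.31 ± 0.07 against RS_Rap (adjusted p = 0.00015 and 0.00113), and averaging its 5 probe sets ended both calls (adjusted p = 0.273 and 0.357). The remaining listed regulators were not analysed here.

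The genes on either side of the locus were read in the RefSeq order of GRCm38.p6, 10 tested genes beyond Malat1 and 10 beyond Neat1. In RS_Rap against RS_DMSO 5 rose and 4 fell (median 0.11), in RR_Rap against RS_DMSO 6 rose and 4 fell (median 0.09), and in RR_Rap against RS_Rap 5 rose and 5 fell (median -0.06). With each array centred on its 75th percentile the last 2 splits were 8 and 3 and 7 and 3, and after quantile normalization the last was 6 and 3. Calls numbered 9, 10 and 10 of the 20 in the 3 comparisons, where 35.6%, 51.8% and 56.5% of all genes were called, a share near the background. In RS_Rap against RS_DMSO the split was 3 and 3 without the second RS_DMSO or the third RS_Rap array and 4 and 2 without the first RS_Rap array, and in RR_Rap against RS_Rap it was 5 and 3 without the second RS_Rap array. Ltbp3, a latent TGF-beta binding protein and the first tested gene beyond Malat1, averaged 2105 ± 178 in RR_Rap, 6106 ± 468 in RS_Rap and 3151 ± 200.3 in RS_DMSO (SD, n = 3 each). It rose by 0.95 ± 0.08 (adjusted p = 9.71e-08) in RS_Rap against RS_DMSO, with its other 3 probe sets at 1.44, 1.71 and 2.02, and was -1.53 ± 0.08 (adjusted p = 3.66e-11) in RR_Rap against RS_Rap. RR_Rap minus RS_DMSO was -0.58 ± 0.08 (adjusted p = 1.45e-05), but -0.06 once its probe sets were averaged (adjusted p = 0.714). Frmd8, the first tested gene beyond Neat1, was at -0.06 ± 0.14, -0.01 ± 0.14 and 0.05 ± 0.14 in the 3 comparisons, none of them called.

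Further along, Pola2, a subunit of the DNA polymerase alpha-primase complex that starts DNA strands, fell in RS_Rap against RS_DMSO, at -1.15 ± 0.15 (adjusted p = 1.21e-05). So did the mitochondrial ribosomal gene Mrpl49, at -0.68 ± 0.09 (adjusted p = 2.14e-05). Sipa1, a Rap GTPase-activating protein, was at -0.60 ± 0.21 (adjusted p = 0.0362), a call lost in 5 settings that include leaving out the second or the third RS_DMSO array or the first or the third RS_Rap array (adjusted p = 0.0697, 0.1, 0.135 and 0.106). In RR_Rap against RS_DMSO Znrd2, the next gene after Ltbp3, rose by 1.22 ± 0.07 and Rnaseh2c, a subunit of RNase H2, by 1.07 ± 0.09 (adjusted p at most 2.17e-08), and the carrier Slc25a45 was at -0.56 ± 0.16 (adjusted p = 0.00586). Against RS_Rap, Znrd2, Pola2 and Rnaseh2c rose by 1.47 ± 0.07, 1.33 ± 0.15 and 1.28 ± 0.09 (adjusted p at most 6.1e-07).

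**Figure D5:**
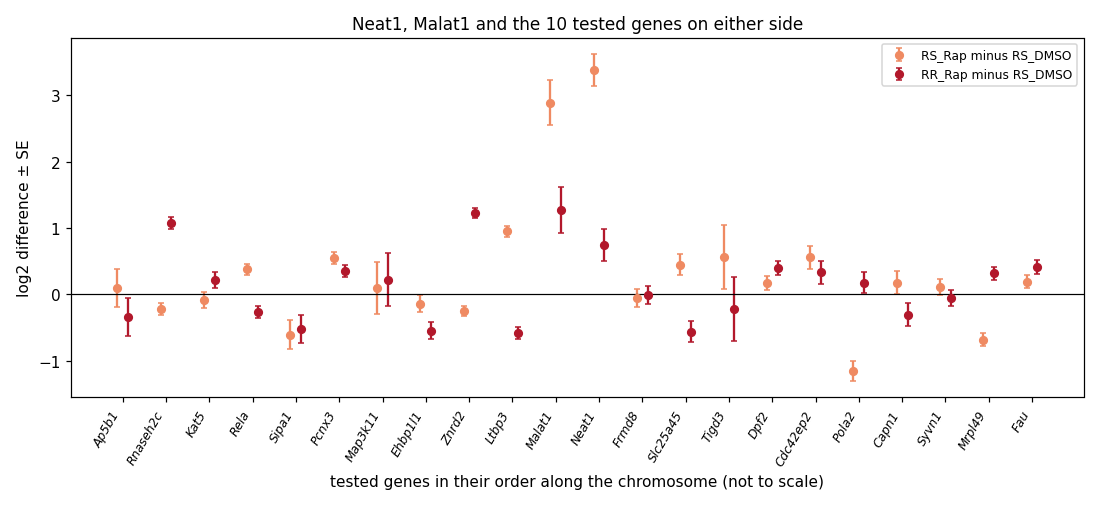
Log2 difference (± SE, n = 3 arrays a group) of the brightest probe set of Malat1, Neat1 and the 10 tested genes on either side, in their order along the chromosome and not to scale, for RS_Rap minus RS_DMSO and RR_Rap minus RS_DMSO. Malat1 and Neat1 stand at 2.89 and 3.38 in RS_Rap, Ltbp3 beside Malat1 at 0.95 and Frmd8 beside Neat1 at -0.06.

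The genes whose log2 signal over the 9 arrays was most like that of each member's brightest probe set are given by Pearson correlation, which here mostly reflects the 3 group levels. For Neat1 they were Eif4a2 (0.989), Hbp1 (0.989), Npc2 (0.987), Tgfb3 (0.984) and Ndufa13 (0.981). Hbp1, a transcription repressor, averaged 728 in RR_Rap, 1468 in RS_Rap and 638 in RS_DMSO, and Tgfb3, a TGF-beta ligand, 293, 713 and 254 in the same order. For Malat1 they were Pigl (0.977), Stard6 (0.975), Cst3 (0.971), Amotl2 (0.967) and Kdm5a (0.967). The lysine demethylase Kdm5a averaged 377 in RR_Rap, 532 in RS_Rap and 317 in RS_DMSO, a much flatter pattern than that of Malat1. For Sfpq they were Uhrf1 (0.992), Nelfcd (0.989) and Nrm (0.989). Uhrf1, which maintains DNA methylation during replication, averaged 1119.6 in RR_Rap, 89.0 in RS_Rap and 615 in RS_DMSO. Nono was most like Fam214a (0.979), Amotl1 (0.967) and Lst1 (0.967), and Pspc1 most like Fam126a (0.996), Carm1 (0.995) and Fam185a (0.995). Carm1, an arginine methyltransferase, averaged 1419 in RR_Rap, 532 in RS_Rap and 608 in RS_DMSO.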

How the data were processed

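Total RNA of 9 samples was labelled by the one-cycle cDNA protocol and hybridised to 1-colour Affymetrix mouse arrays. The authors deposited 1 signal intensity per probe set, made with GCOS 1.4 per the submitters' processing notes. The deposited intensities are linear, and their mean after trimming 2% at each end is 250 on every array. They were not normalized again, and log2(signal + 16) was taken. The number of arrays, 3 a group, limits the precision.

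Of 45101 probe sets 64 were controls, 34945 had 1 gene symbol in the platform annotation, 932 several and 9160 none. The 27022 probe sets other than controls with a mean on the log scale above the 40th percentile (signal 22.2) entered 1 limma fit of all 9 arrays (limma 3.58.1, R 4.3.3, trended eBayes), and the 12715 genes with a probe set of 1 symbol among them a second one, each by its brightest. Calls are at an adjusted p under 0.05 (Benjamini-Hochberg). The fits were tested on simulated data. Other steps used Python 3.11.15, SciPy 1.17.1 and pandas 2.3.3.

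The members, the 6 gene lists and the tests were chosen with earlier results of these data known, and the motifs after the promoters were read. Named genes are all member probe sets, up to 4 called genes with the largest absolute difference per list and comparison, and the 5 or 3 genes most like each noncoding RNA or protein gene, leaving out clone and predicted-gene names. Frmd8 was named after its values were seen, as the nearest tested gene beyond Neat1. The 18 alternatives covered the pseudocount, filter, scaling, probe set choice, trend, a replicate block and each array left out. Groups share replicate numbers, but deviations of same-numbered arrays from their group means correlated at only -0.08 to 0.02 over 9 pairs.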

Additional observations from a re-analysis of the deposited data

How the results depend on the processing

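Over the 18 alternatives, genes called numbered 3895 to 4714 in RS_Rap against RS_DMSO, 5864 to 6636 in RR_Rap against RS_DMSO and 6633 to 7703 in RR_Rap against RS_Rap, and 376 of 378 counts of calls stayed within 1.5 times their value. The exceptions, both with the mean of each gene's probe sets, were the regulators of Neat1 transcription, of which 0 were called in RR_Rap against RS_DMSO and 1 in RR_Rap against RS_Rap, against 2 in each with the brightest probe set. With that mean, Neat1 came to 1.67 and Malat1 to 1.17 in RS_Rap minus RS_DMSO, where the brightest probe sets gave 3.38 and 2.89; Malat1 1436202_at runs the other way. RR_Rap minus RS_DMSO came to 0.08 for Neat1, -0.13 for Malat1, 0.70 for Sfpq and 0.72 for Pspc1, against 0.75, 1.27, 0.24 and 1.51, and RS_Rap minus RS_DMSO to -0.11 for Sfpq, against -0.65. RR_Rap minus RS_Rap came to -1.60 for Neat1 and 1.05 for Pspc1, against -2.63 and 1.76. Under this mean signs turned for Malat1 (above), for Nono in RR_Rap minus RS_Rap (0.15) and in RS_Rap minus RS_DMSO (-0.21), and for Rbmx in RS_Rap minus RS_DMSO, to -0.36 (adjusted p = 0.354). Of the differences of single member probe sets 1054 moved by less than the SD between arrays, 31 moved by more and 1, that of Nono in RR_Rap minus RS_Rap under the mean, was classed as reversed. The 31 came with the mean of probe sets (10), centring on the 75th percentile (9), a pseudocount of 64 (6), quantile normalization (5) and a pseudocount of 1 (1). Of the named genes' differences 1142 kept their direction and call and 27 lost the call. With a replicate block 4382, 6448 and 7100 genes were called in the 3 comparisons, against 4523, 6581 and 7186 without it. The paraspeckle counts with the block were 4 higher and 8 lower, 22 and 6, and 24 and 6, and no call of a named gene changed. The block was not used, because the shared numbers do not pair the arrays. Depth is not counted on arrays, so differences of probe sets near the filter, such as Neat1 1442881_at, are the least certain.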
